A study of Mus musculus with 8 samples.

Results

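White matter-associated microglia (WAM) were examined in aged mice that lack mature T and B cells. The cells are those the authors named WAM in their deposited clustering of microglia, in the 4 libraries of Rag1-/- mice, and they numbered 1188 of 7430 Rag1-/- microglia, 20905 Rag1-/- cells and 29631 cells in the series as a whole. Counts were used for 1180 of them, since the table of Rag1-/- cells of all types lacked 4 WAM each of white matter libraries 2 and 3. The names Lpl, Spp1, Itgax and Axl mark this state, and microglia named Homeostatic1 and Homeostatic2 in the same library served as the reference.

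The study profiled single cells of gray and white matter of aged brain with and without Rag1. All 4 libraries used here came from 24-month-old mice with the Rag1 deletion, so the deletion is shared by both tissues and no genotype comparison was made. Gray matter was prefrontal cortex, and white matter was optic tract, medial lemniscus and corpus callosum. Per the study's list of mice, gray matter library 1 and white matter library 1 (batch 1) came from the same pooled male mice, and white matter libraries 2 and 3 (batch 2) came from 1 male mouse each, although the study's methods state that tissue of 2 animals was combined per sample. The labels give the strain as NOD.129S7(B6)-Rag-1tm1Mom/J, whereas the study's methods give B6.129S7-Rag1tm1Mom/J on C57BL/6J, and the conflict could not be settled here. Tissue was dissociated in the presence of actinomycin D, a transcription inhibitor, live cells were sorted without a microglial marker, and 3′ ends of transcripts were counted with unique molecular identifiers (UMIs). The lone gray matter library limits every comparison between tissues.

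Microglia are the resident macrophages of the brain. In white matter, which is made largely of lipid-rich myelin, aging and demyelination are known to be accompanied by microglia that take up myelin debris, lower their homeostatic genes and raise genes of lipid handling and of the lysosome. Rag1 encodes a recombinase subunit without which antigen receptor genes of T and B cells are not assembled, whereas natural killer (NK) cells and myeloid cells still form.

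The promoters of the marker genes are shown first because the rest of the text turns on the levels of these genes. Sequences are from RefSeq on GRCm38.p6, run 5′ to 3′ on the strand of the gene from 250 bases before to 50 bases after its start, and carry capitals where a searched motif lies. Of the 4 markers, Lpl was not in the promoter table, Spp1 had 2 promoters (the upstream one is printed), and Itgax and Axl had 1 each. Spp1 encodes osteopontin, a secreted matrix protein, and its promoter lies at chr5:104434861-104435160 on the plus strand. Itgax encodes the integrin alpha chain CD11c, and its promoter lies at chr7:128129300-128129599 on the plus strand. Axl encodes a receptor tyrosine kinase that binds apoptotic cells through the bridging protein Gas6, and its promoter lies at chr7:25788684-25788983 on the minus strand.
Spp1: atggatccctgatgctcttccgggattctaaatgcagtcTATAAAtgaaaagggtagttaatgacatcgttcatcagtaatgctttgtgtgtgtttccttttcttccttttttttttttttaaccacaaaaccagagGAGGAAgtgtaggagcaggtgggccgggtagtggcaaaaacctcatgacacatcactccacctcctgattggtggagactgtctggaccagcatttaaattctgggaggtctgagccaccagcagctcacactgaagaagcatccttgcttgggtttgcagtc
Itgax: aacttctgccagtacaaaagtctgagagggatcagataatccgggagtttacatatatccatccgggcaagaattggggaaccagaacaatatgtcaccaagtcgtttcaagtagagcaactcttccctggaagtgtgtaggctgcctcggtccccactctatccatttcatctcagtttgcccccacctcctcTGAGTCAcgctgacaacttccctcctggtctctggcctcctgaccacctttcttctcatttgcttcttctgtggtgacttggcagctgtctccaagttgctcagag
Axl: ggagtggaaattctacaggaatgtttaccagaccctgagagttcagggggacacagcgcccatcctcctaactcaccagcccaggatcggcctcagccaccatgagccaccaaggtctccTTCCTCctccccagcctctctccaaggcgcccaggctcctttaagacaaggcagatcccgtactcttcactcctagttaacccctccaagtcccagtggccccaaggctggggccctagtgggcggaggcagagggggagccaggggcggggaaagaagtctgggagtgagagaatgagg
Of 32851 RefSeq promoters of this length, 7.15% hold CACGTG on either strand, the letters bound by MiT/TFE and other E-box factors. The AP-1 motif TGACTCA is held by 5.20%, the core GAGGAA of PU.1 motifs by 28.3% and the TATA box TATAAA by 13.6%. In Spp1 the capitals mark GAGGAA at -113 and TATAAA at -211 from the start. In Itgax they mark TGACTCA at -56 and in Axl GAGGAA at -130, both on the opposite strand and so printed as the reverse complement. These matches describe the letters in the windows and nothing about binding. Lpl encodes lipoprotein lipase, which frees fatty acids from lipoproteins, and the gene body lies at chr8:68880491-68907448 in the GENCODE annotation of the same assembly.

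The 4 libraries held 2944 to 7631 cells and 25790692 to 57899352 UMIs. Summed WAM gave 203908 UMIs from 27 cells in gray matter, and 6211518, 1067925 and 1808455 UMIs in white matter libraries 1 to 3. A count of 3, taken as the floor, therefore stood for a level of 12.6 CPM (UMIs of a gene scaled to the same total in each sum) in gray matter WAM and for 0.542 to 3.18 CPM in white matter WAM. WAM were deeper than homeostatic microglia in each library, with medians of 7241 against 5994, 7042 against 5343, 7946 against 7269 and 7371 against 5396.5 UMIs per cell. The mean difference was 1399 ± 567 UMIs (SD, n = 4 libraries; exact sign-flip permutation test, two-sided p = 0.125, the smallest it can give). Libraries shared 47 cell barcodes, 5 of them of WAM, and no doublet caller was run here.

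The proportion of WAM among microglia was low in gray matter and higher in each white matter library. WAM made up 27 of 1732 microglia in gray matter library 1, or 1.56% (95% exact binomial interval 1.03 to 2.26, for counting error alone). They made up 799 of 3617 microglia in white matter library 1, or 22.1% (20.7 to 23.5), 125 of 712 in library 2, or 17.6% (14.8 to 20.6), and 237 of 1369 in library 3, or 17.3% (15.3 to 19.4). The white matter mean of 19.0% ± 2.69 (SD, n = 3) was 12.2-fold above gray matter, and the groups did not overlap. An exact two-sided permutation test over the 4 libraries gave p = 0.25, the smallest that 3 against 1 allows. Within batch 1, where both tissues came from the same pool, the shares were 22.1% and 1.56%. Relative to all cells of the library, WAM made up 0.709% of the gray matter library and 10.5%, 4.25% and 3.63% of the white matter libraries, 8.62-fold higher on average (exact permutation p = 0.50).

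**Figure D1:**
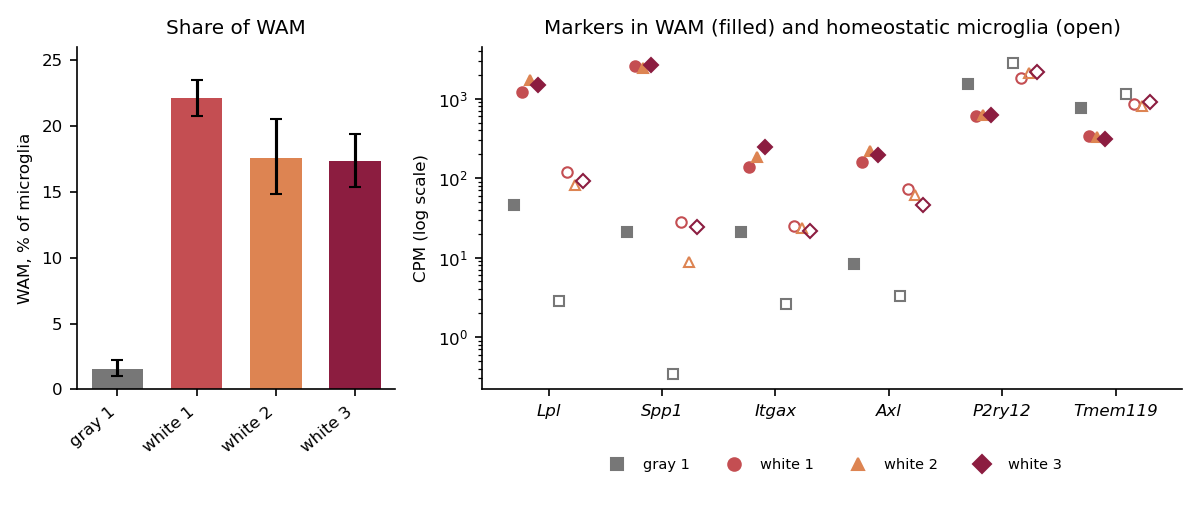
Left, WAM as a percentage of microglia in each Rag1-/- library, with 95% exact binomial intervals. Right, CPM on a log axis of 4 WAM markers and 2 homeostatic genes in the summed WAM (filled) and homeostatic microglia (open), 1 symbol per library. White matter bars stand at 17.3% to 22.1% and the gray matter bar at 1.56%, and Lpl, Spp1, Itgax and Axl of gray matter WAM lie below those of every white matter WAM sum.

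Levels of the 4 markers were set beside the label. Lpl stood at 46.1 CPM in gray matter WAM and at 1200, 1717 and 1474 CPM in white matter WAM, against 2.84, 121, 81.5 and 91.2 CPM in homeostatic microglia of the same libraries. Spp1 stood at 21.0, 2561, 2477 and 2691 CPM in WAM, against 0.344, 28.1, 8.90 and 24.5 CPM in homeostatic microglia. Every library had both markers higher in WAM. Itgax stood at 21.0, 139, 185 and 244 CPM in WAM and at 2.58 to 24.9 CPM in homeostatic microglia. Axl stood at 8.38, 159, 222 and 195 CPM in WAM and at 3.27 to 73.6 CPM in homeostatic microglia. In gray matter these sums rested on 11, 5, 5 and 2 UMIs of Lpl, Spp1, Itgax and Axl.

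Per cell, white matter WAM carried the markers and gray matter cells labelled WAM mostly did not. In gray matter, 19 of 27 labelled cells had no UMI of any of the 4 markers, 5 had 1 marker, 3 had 2 and none had more. In white matter, 9.26%, 14.9% and 15.02% of WAM had no marker, and 18.3%, 22.3% and 19.7% had all 4. Of homeostatic microglia, 95.4% had no marker in the gray matter library, as did 47.9%, 58.1% and 64.0% of those in white matter libraries 1 to 3. With each cell thinned to 3000 UMIs, Lpl was seen in 11.1% of gray matter WAM and in 60.6%, 53.9% and 60.9% of white matter WAM. Oligodendrocytes, which should lack it, had an Lpl UMI in at most 0.697% of cells at the same depth. The markers thus go with the name in white matter. The clusters were drawn from such genes in these cells, so this is no independent check. The gray matter cells are called here by their deposited label, and the counts of genes against homeostatic microglia are given with and without that library.

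WAM were compared with homeostatic microglia of the same library, as a description without a test, because the authors drew the clusters from these genes in these cells. Of 10932 genes past the count filter, 147 (1.34%) were at least 2-fold higher in WAM in each of the 4 libraries and 46 (0.421%) at least 2-fold lower. Without the gray matter library, 311 of 11013 genes (2.82%) were higher and 108 (0.981%) lower in each of 3 libraries. In gray matter, 53 of the 147 higher genes and 35 of the 46 lower genes rested on at most 3 UMIs in WAM. The reference cells also differed by tissue, with 1634 Homeostatic1 and 29 Homeostatic2 cells in gray matter. White matter libraries 1 to 3 held 785, 248 and 577 Homeostatic1 cells and 1884, 226 and 459 Homeostatic2 cells. Against Homeostatic1 alone 196 genes (1.94%) were higher and 65 (0.645%) lower in 4 libraries, and against Homeostatic2 alone 62 (0.666%) and 7 (0.0751%). In bulk sums a change in the number of cells expressing a gene and a change per cell cannot be told apart, so detection per cell is given where it bears on a gene.

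Genes of disease-associated microglia, a state first described around amyloid plaques that shares genes with WAM, were mostly higher. Of 41 listed genes 38 passed the filter, and 18 were past 2-fold higher in each library and none lower, while 35 were higher at any size. Apart from the 4 markers the count was 14 of 34, with a median log2 difference of 1.72 beside -0.07 over all genes. The list was partly known to move in WAM, so its direction is no independent evidence. Without the gray matter library, 27 of 39 listed genes were past 2-fold higher. Against Homeostatic2 alone, 7 of 35 listed genes and 1 of the 4 markers were past 2-fold higher in 4 libraries.

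Among secreted and membrane members, Lgals3 and Cst7 stood well above the reference. Lgals3, which encodes galectin-3, a lectin that binds damaged lysosomes, stood at 62.9, 592, 600 and 638 CPM in WAM of gray matter library 1 and white matter libraries 1 to 3. In homeostatic microglia it stood at 0.344, 19.8, 10.0 and 8.90 CPM, and the log2 difference was 5.84 ± 0.69 (SD, n = 4). The gray matter value is that of few cells, since 14 of its 15 UMIs lay in 1 of 27 cells. Cst7, which encodes cystatin F, an inhibitor of lysosomal proteases, stood at 168, 377, 476 and 638 CPM in WAM and 17.2 to 93.0 CPM in homeostatic microglia. Its log2 difference was 2.93 ± 0.61, and its 40 UMIs in gray matter were spread over 13 cells. Cybb, the catalytic subunit of the phagocyte NADPH oxidase, differed by 3.82 ± 0.55 and Csf1, the growth factor of microglia, by 3.05 ± 0.24 on the log2 scale. In gray matter WAM Cybb rested on 8 UMIs, 5 of them in 1 cell, and Csf1 on 17 UMIs in 6 cells. Cd63, a tetraspanin of late endosomes, differed by 1.64 ± 0.13. Trem2, the lipid receptor upstream of this state, and its adaptor Tyrobp differed by 0.40 ± 0.12 and 0.63 ± 0.16, in the same direction in 4 of 4 libraries but short of 2-fold. Clec7a was not analysed here.

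Apoe carried a large part of the transcriptome of white matter WAM. This gene, which encodes the main lipid carrier of the brain, took 4.18%, 4.23% and 4.96% of all UMIs of white matter WAM and 0.0422% of those of gray matter WAM. Homeostatic microglia gave 1.53%, 1.21% and 1.08% in white matter and 0.0245% in gray matter. The log2 difference was 0.76, 1.66, 2.06 and 2.53 in gray matter library 1 and white matter libraries 1 to 3. Against Homeostatic2 alone, 29 cells in gray matter, the gray matter differences of Apoe, Axl and Lyz2 were below 0, at -1.90, -2.02 and -0.89, and those of white matter stayed above 0. Oligodendrocytes, another source of Apoe RNA, held 18.3 to 38.0 Apoe UMIs per cell in the 4 libraries, where white matter WAM held 325 to 385 and gray matter WAM 3.19. Oligodendrocytes of the gray matter library held 20.7.

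Genes of lipid uptake, efflux and storage were higher in part. Of 27 listed, 24 passed the filter, with a list median of 0.96. In 4 libraries 5 were past 2-fold higher (Lpl, Cd36, Msr1, Fabp3 and Plin2) and none lower. Of these, Cd36, Msr1 and Fabp3 rested on 1, 3 and 1 UMIs in gray matter WAM. Plin2, a coat protein of lipid droplets, stood at 50.3, 66.3, 56.3 and 64.0 CPM in WAM and at 16.6 to 22.3 CPM in homeostatic microglia. Its log2 difference of 1.68 ± 0.15 varied little between libraries. Fabp5, a fatty acid carrier, stood at 16.8 CPM in gray matter WAM, near its homeostatic 13.7 CPM, and at 456, 382 and 489 CPM in white matter WAM against 22.2 to 45.3 CPM. Ch25h, which makes 25-hydroxycholesterol, had no UMI in gray matter WAM and stood at 136, 217 and 148 CPM in white matter WAM against 0.834 to 2.51 CPM. The cholesterol exporters Abca1 and Abcg1 differed by 0.28 ± 0.12 and 0.58 ± 0.29 on the log2 scale. Of 23 genes of cholesterol synthesis none was past 2-fold in 4 libraries, and their median was -0.16 in the gray matter library and 0.56 over white matter.

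Lysosomal genes were higher by small steps. Of 45 listed, 44 passed the filter, 4 were past 2-fold higher and none lower, while 30 were higher and 5 lower in 4 of 4 libraries at any size (17.1% and 21% of all genes). Against Homeostatic2 alone none of 44 was past 2-fold in 4 libraries. Ctsb, a cysteine protease, stood at 2825, 4443, 4232 and 3894 CPM in WAM and at 1326, 2037, 1726 and 1752 CPM in homeostatic microglia, a log2 difference of 1.17 ± 0.09. Atp6v0c and Atp6v1a, subunits of the proton pump that acidifies lysosomes, differed by 1.18 ± 0.06 and 1.20 ± 0.14. Lgmn, a lysosomal protease, differed by -0.44 ± 0.13, so members of the list were not shifted together.

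Chemokines were among the genes with the highest folds over homeostatic microglia. Of 33 listed chemokines, cytokines and growth factors 27 passed the filter, and 12 were past 2-fold higher in each library and none lower. Ccl4, a chemokine that attracts leukocytes, stood at 365, 1523, 1880 and 1835 CPM in WAM and at 6.19, 14.8, 6.67 and 19.3 CPM in homeostatic microglia. The log2 difference was 6.76 ± 0.94, and at 3000 UMIs Ccl4 was seen in 37.0% of gray matter WAM and 23.5% to 31.0% of white matter WAM. Ccl3, a related chemokine, stood at 231, 1202, 1178 and 1120 CPM and differed by 5.22 ± 0.62. Ccl2, a ligand for monocytes, varied between white matter libraries, with 59.6, 218 and 64.0 CPM in libraries 1 to 3. In gray matter it stood at 16.8 CPM, on 4 UMIs. Il1b, an inflammatory cytokine, stood at 75.4, 64.7, 20.2 and 58.6 CPM and differed by 3.56 ± 1.21, with its 18 gray matter UMIs in 3 cells. Tnf, another, stood at 92.2 CPM in gray matter WAM and at 30.7, 18.0 and 24.3 CPM in white matter WAM. Of the 22 gray matter Tnf UMIs, 21 lay in 1 cell. Igf1, a growth factor, had no UMI in gray matter WAM and stood at 124, 96.6 and 113 CPM in white matter WAM against 4.03 to 10.6 CPM.

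Immediate early genes, which answer to stimulation within minutes and which actinomycin D is meant to hold down during dissociation, were low for Fos and higher for Egr1. Fos held 0 to 8.38 CPM in WAM sums and did not pass the filter. Egr1 stood at 12.6, 79.3, 81.7 and 70.1 CPM in WAM and at 0.516 to 2.64 CPM in homeostatic microglia, and Atf3 at 75.4, 252, 139 and 214 CPM against 8.51 to 20.8 CPM. With Egr2 they were the 3 of 14 listed genes past 2-fold in 4 libraries. In gray matter WAM, Egr1 and Egr2 rested on 3 UMIs each, those of Egr2 in 1 cell, and Atf3 on 18.

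**Figure D2:**
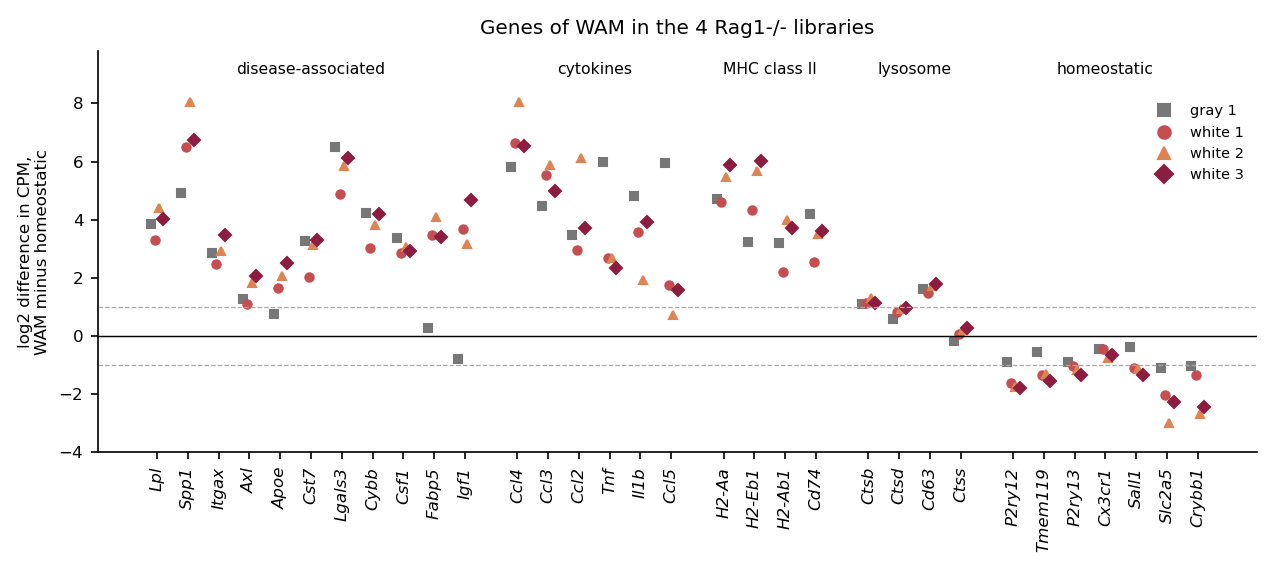
Log2 difference in CPM, WAM minus homeostatic microglia of the same library, for named genes grouped by role, with 1 symbol per library and dashed lines at 2-fold. Ccl4 and Spp1 lie highest, with means of 6.76 and 6.56, and Slc2a5 and Crybb1 lie among the lowest, with means of -2.09 and -1.87. Gray matter stands apart from white matter for Fabp5, Igf1, Tnf and Ccl5, on few UMIs or few cells. In gray matter WAM, Fabp5 had 4 UMIs and Igf1 had 0, so the prior count places its point. Of 22 Tnf UMIs there, 21 lay in 1 cell, and all 24 Ccl5 UMIs lay in 1 cell.

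Of MHC class II genes, whose products present peptides to CD4+ T cells, 4 were higher in the WAM sums of these mice, which lack such cells, and for H2-Aa and H2-Eb1 a minority of WAM had a UMI. H2-Aa, a chain of the class II molecule, stood at 88.0, 69.2, 370 and 198 CPM in WAM and at 3.01, 2.51, 8.06 and 3.02 CPM in homeostatic microglia. The log2 difference was 5.16 ± 0.61, and the sums of library 2 were the highest and those of library 1 the lowest. H2-Eb1 differed by 4.81 ± 1.28, H2-Ab1 by 3.29 ± 0.78 and Cd74, the invariant chain, by 3.47 ± 0.68. These were the 4 of 11 class II genes past 2-fold. At 3000 UMIs, H2-Aa was seen in 14.8% of gray matter WAM and 6.81%, 13.7% and 11.4% of white matter WAM, in 0.683% to 1.51% of homeostatic microglia and in at most 0.476% of oligodendrocytes. H2-Eb1 was seen in 7.41% of gray matter WAM and 5.61%, 14.7% and 7.61% of white matter WAM. The other 7, among them H2-DMa and H2-DMb1, which load peptides, and the lysosomal enzymes Ctss and Ifi30, held the list's median at 0.09. Markers of monocytes, granulocytes and dendritic cells, some of which carry class II, summed to 24.5, 30.9, 35.6 and 35.4 CPM (of all UMIs) in WAM and 46.8, 28.9, 16.03 and 18.5 CPM in homeostatic microglia. They were higher in WAM above all in white matter libraries 2 and 3, where H2-Aa and H2-Eb1 were also highest, and their part in the class II values was not tested. In gray matter 12 of 27 WAM had a Cd74 UMI, and 32 of its 105 UMIs lay in 1 cell. None of 22 genes of MHC class I presentation was past 2-fold, and 9 were higher in 4 of 4 libraries, among them B2m (0.55 ± 0.21) and H2-D1 (0.86 ± 0.27).

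Interferon-stimulated genes gave no common direction. Of 38 listed type I interferon-stimulated genes 32 passed the filter. Of these 1 was past 2-fold higher (Ifi207, 2.63 ± 0.27, on 2 UMIs in gray matter WAM) and none lower, with a median of -0.25. The median was 0.012 against Homeostatic1 alone and -0.79 against Homeostatic2 alone. Summed per cell, the list took a median of 10.2, 10.8, 10.6 and 8.20 UMIs per 10000 in WAM of gray matter library 1 and white matter libraries 1 to 3, and 8.20, 10.3, 9.92 and 7.74 in homeostatic microglia. Isg15, a ubiquitin-like modifier, stood at 8.09 to 11.7 CPM in WAM and 9.46 to 18.1 CPM in homeostatic microglia. The ranges overlapped. The complement genes C1qa, C1qb and C1qc differed by 0.11 ± 0.08, 0.12 ± 0.10 and 0.06 ± 0.10.

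Among genes of metabolism, glycolysis had 2 of 16 members past 2-fold higher in 4 libraries and 7 of 16 without the gray matter library. Pkm, the last enzyme of the pathway, stood at 360, 567, 469 and 507 CPM in WAM and at 146 to 222 CPM in homeostatic microglia, a log2 difference of 1.37 ± 0.06. Aldoa and Pgk1, 2 other enzymes, differed by 1.25 ± 0.32 and 1.28 ± 0.28. Of 20 iron and redox genes 3 were past 2-fold higher. Fth1, the ferritin heavy chain, took 1.16%, 1.15% and 1.38% of UMIs in white matter WAM and 0.487% in gray matter WAM, against 0.298% to 0.503% in homeostatic microglia. Hmox1, which degrades heme, was uneven, with 190, 57.3 and 72.1 CPM in white matter WAM and 37.7 CPM in gray matter WAM. None of 10 proliferation genes past the filter reached 2-fold, and Mki67 stayed at or under 1.26 CPM in WAM.

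Receptors did not move as one group. Of 18 inhibitory receptors and ligands 5 were past 2-fold higher and none lower. Lilrb4a, an inhibitory receptor of myeloid cells, stood at 92.2, 368, 311 and 307 CPM in WAM and at 1.98 to 25.5 CPM in homeostatic microglia. Its gray matter level rested on 22 UMIs in 6 cells. Cd274, which encodes the ligand PD-L1, differed by 1.60 ± 0.43, on 10 gray matter UMIs. Of 22 phagocytic and sensing receptors 4 were past 2-fold higher, namely Axl, Msr1, Cd36 and Tlr2, with a list median of -0.04. Of these, Axl, Msr1 and Cd36 rested on 2, 3 and 1 UMIs in gray matter WAM. Mertk, the receptor related to Axl, stood at 172 to 200 CPM in white matter WAM against 284 to 331 CPM in the reference, and at 360 against 347 CPM in gray matter.

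Homeostatic genes were lower in WAM by unequal steps. Of 35 listed, 3 were past 2-fold lower in 4 libraries and none higher, with a median of -0.58. At any size 29 were lower in 4 of 4 libraries, as were 21% of all genes. Without gray matter 12 were past 2-fold lower. Against Homeostatic2 alone none of 35 was past 2-fold lower in 4 libraries, and the median was -0.38. P2ry12, the ADP receptor that steers microglial processes, stood at 1538, 599, 633 and 620 CPM in WAM and at 2859, 1819, 2140 and 2154 CPM in homeostatic microglia. Its log2 difference was -0.89 in the gray matter library, nearer to 0 than the -1.60, -1.76 and -1.80 of white matter. Tmem119, a membrane protein specific to microglia in the brain, stood at 767, 342, 326 and 307 CPM against 814 to 1136 CPM. Slc2a5, a fructose transporter, differed by -2.09 ± 0.79, Crybb1 by -1.87 ± 0.81 and the adhesion receptor Adgrg1 by -1.32 ± 0.23. Cx3cr1, the fractalkine receptor, and Csf1r, the receptor for Csf1, differed by -0.57 ± 0.16 and -0.45 ± 0.03. Cst3, which encodes the protease inhibitor cystatin C, differed by -0.43 ± 0.04. At 3000 UMIs P2ry12 was seen in 100% of gray matter WAM and in 63.3%, 63.7% and 67.4% of white matter WAM, and in 96.1% to 99.9% of homeostatic microglia.

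Outside the lists, the rule on size named Nes, Gas2l3 and Lgals1 as higher and Tspan18, Gbp7, Upk1b, Khdrbs3, Rhobtb1, Plxna4, Prkca, Gm34589 and Tppp as lower. Nes encodes the intermediate filament nestin, and stood at 21.0, 75.5, 67.9 and 88.9 CPM in WAM against 1.20 to 7.22 CPM. Its log2 difference was 3.74 ± 0.13, and its gray matter level rested on 5 UMIs in 3 cells, with 3 of the UMIs in 1 cell. Upk1b, a tetraspanin, stood at 75.4 CPM in gray matter WAM and 14.9 to 19.5 CPM in white matter WAM, against 67.2 to 161 CPM.

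**Figure D3:**
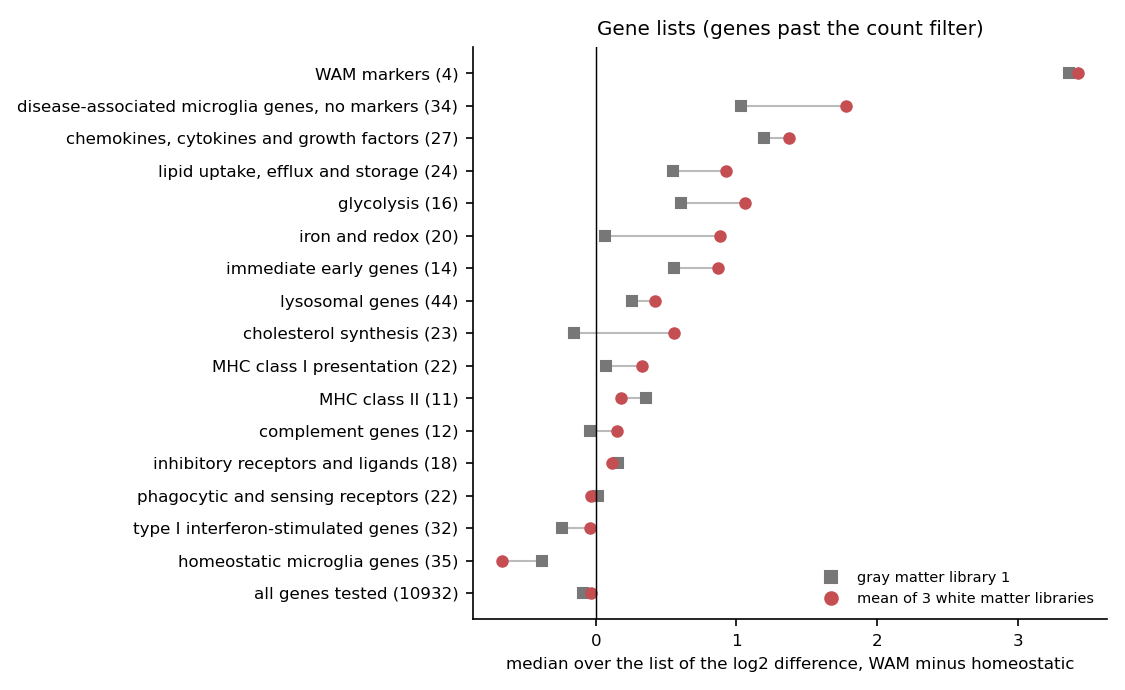
Median over each gene list of the log2 difference, WAM minus homeostatic, in gray matter library 1 (squares) and for the mean of the 3 white matter libraries (circles), with the number of genes past the filter in brackets. The disease-associated list without its 4 markers has medians of 1.03 and 1.78, the homeostatic list -0.38 and -0.67, and all genes -0.09 and -0.03.

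WAM were also set beside the other named states, again without a test. Cells named Activated numbered 27, 112, 100 and 87 in gray matter library 1 and white matter libraries 1 to 3. They were shallower, with medians of 2027, 1392, 805 and 976 genes per cell against 2855, 2488, 2521 and 2445 in WAM. The part of depth in this comparison was not tested. Against Activated cells, 72 of 5058 genes (1.42%) were past 2-fold higher in WAM in 4 libraries and 56 (1.11%) lower. Spp1 differed by 5.40, H2-Eb1 by 4.88, Lilrb4a by 4.71, Lpl by 4.09 and Lgals3 by 2.56 on the log2 scale. Of the 147 genes above homeostatic microglia 82 passed the filter here and 41 were also above Activated cells, 27.9% of the 147 and 56.9% of the 72, and both comparisons share the WAM sums. Against interferon-responsive microglia (IRM), which numbered 9 to 37 per library, 11 of 3679 genes (0.299%) were higher in WAM and 124 (3.37%) lower. Of 35 interferon-stimulated genes past the filter 34 were lower in WAM than in IRM, with Ifit3 at -7.28 and Isg15 at -6.45. Spp1 differed by 3.27 and Ank, a phosphate transporter, by 2.33. Lpl, Itgax and Axl did not reach 2-fold over IRM in each library. Of 21 chemokine, cytokine and growth factor genes past the filter, 2 were higher and 4 lower in WAM than in IRM. Summed per cell, this list took a median of 32.3 UMIs per 10000 in gray matter WAM and 46.5 in gray matter IRM. In white matter libraries 1 to 3 the medians were 41.6, 34.7 and 40.9 in WAM and 35.8, 55.7 and 49.4 in IRM.

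WAM of a library differed widely in how much they carried of the 4 markers. In white matter library 1 the markers took a median of 9.15 UMIs per 10000, with quartiles at 3.63 and 25.7 and a highest cell at 703. Across the 799 WAM of that library, the genes whose share of UMIs ranked most like that of the markers, by Spearman's rho over 6721 genes, were Lgals3 (0.474), Cd63 (0.415), Ctsb (0.404), Capg (0.390), Ftl1 (0.384) and Lilrb4a (0.383). In libraries 2 and 3, Lgals3 gave 0.301 and 0.378, and Ftl1 0.048 and 0.235. The lowest were Tmem119 (-0.437), Selplg (-0.433) and P2ry12 (-0.412), and in libraries 2 and 3 P2ry12 gave -0.215 and -0.391. The summed homeostatic list gave -0.411, -0.296 and -0.287 in libraries 1 to 3. These correlations are across cells of 1 library, which share its depth and its free RNA, and the marker share itself gave rho of 0.145, 0.285 and 0.158 with the cell's UMI count.

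White matter WAM were then compared with gray matter WAM by edgeR's quasi-likelihood test on the summed counts. The fit took the 4 libraries as independent, although gray matter library 1 and white matter library 1 came from the same pooled mice. With batch as a term, an alternative, the tissue difference rests on these libraries alone. Disease-associated genes were higher in part in white matter WAM, and homeostatic genes lower in part. Of 9794 genes 167 (1.71%) were higher and 34 (0.347%) lower at an adjusted p of at most 0.05. Scaled by library size alone, which moved the median of all genes from 0.05 to -0.36 on the log2 scale, the counts were 81 higher and 154 lower, with 80 of the 167 and 34 of the 34 shared. Of 76 genes named among the calls 55 were kept under that scaling, and Cst7, Ctsl, Egr1, Aldoa and H2-K1 were among those lost. Without white matter library 2 they were 19 and 1, and without library 1 they were 462 and 208. Without library 1, here and below, gray matter of batch 1 stands against white matter of batch 2 alone. Tissue and batch cannot then be told apart. With 1 gray matter library the test assumes that gray matter varies as the 3 white matter libraries do.

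Of the 41 disease-associated genes 24 of 40 tested rose in white matter WAM and none fell, with 19 higher under library size alone. Of the 24, 3 (Ch25h, Igf1 and Gpnmb) had no gray matter UMI and passed the filter through white matter alone, which leaves 21. On the log2 scale Spp1 differed by 6.91 (SE 0.35), Lpl by 4.96 (SE 0.38), Axl by 4.47 (SE 0.58) and Itgax by 3.13 (SE 0.57). In gray matter WAM these rested on 5, 11, 2 and 5 UMIs. The 4 genes mark the label, and the clusters were drawn from such genes in these cells. Their differences are therefore a description and no independent support. Apoe differed by 7.14 (SE 0.33; edgeR adjusted p = 1.72e-07), from 360 CPM in gray matter to 46852, 47898 and 60434 CPM in white matter. Lyz2, which encodes lysozyme, differed by 3.57 (SE 0.30; adjusted p = 5.82e-05), and Lgals3 by 3.25 (SE 0.29; adjusted p = 0.0001). Ctsb and Trem2 stayed short of the threshold at 0.54 (SE 0.19; adjusted p = 0.212) and 0.48 (SE 0.20; adjusted p = 0.282). Without white matter library 2, 15 of 40 rose, and the calls of Itgax, Cst7, Gpnmb, Fth1, Ctsl, Ccl6, Timp2, Ank and Lgals3bp were lost. Oligodendrocyte markers had a median of 1.38 on the log2 scale in the same test over 15 genes, of which Trf was called higher. More of them were called without white matter library 1, as were more of all genes. The part of oligodendrocyte RNA in the disease-associated calls was not tested.

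Genes with no UMI in the 27 gray matter cells are given as bounds against the floor of 3 counts. Of the 167 higher genes 18 had no gray matter UMI and 14 had 1 to 3. The 18 passed the filter through their white matter counts alone, which leaves 149 calls with a UMI in both tissues. Vim, which encodes vimentin, was at least 15.4-fold higher in white matter WAM, Ch25h at least 13.3-fold, Mmp12, a macrophage elastase, at least 10.6-fold and Igf1 at least 8.86-fold. Ms4a7, a gene also used to mark border macrophages, was at least 6.92-fold and Gpnmb, a lysosomal glycoprotein, at least 3.67-fold higher. Others of the 10 named by fold at this end were Ass1, Alcam, Gm1673, Rab7b and Apoc2. Without white matter library 2 the calls of Ms4a7, Gpnmb and these 5 were lost.

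Of 35 homeostatic genes 10 fell in white matter WAM relative to gray matter WAM and none rose. More of them were called lower under library size alone and without white matter library 1, as were more of all genes. P2ry12 differed by -1.34 (SE 0.17; edgeR adjusted p = 0.0018) and Tmem119 by -1.26 (SE 0.19; adjusted p = 0.00496). Sall1 and Maf, transcription factors of microglial identity, differed by -1.22 (SE 0.23; adjusted p = 0.0191) and -1.33 (SE 0.20; adjusted p = 0.00552). Tnf differed by -1.85 (SE 0.40; adjusted p = 0.0339), on gray matter UMIs that lay mostly in 1 cell, and Ccr1, a chemokine receptor, by -3.56 (SE 0.75; adjusted p = 0.0278), with 9 of 11 gray matter UMIs in 1 cell. Hbb-bs, a hemoglobin chain of red cells, stood at 365 CPM in gray matter WAM and 16.2 to 50.8 CPM in white matter WAM, and at nearly the same 374 and 14.3 to 49.96 CPM in homeostatic microglia. The part of free red cell RNA in this and other calls was not tested. Without white matter library 2 none of the 10 homeostatic genes was called, nor were Tnf, Ccr1 and Hbb-bs.

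Among the other lists, 7 of 30 cytokine genes rose in white matter WAM, with Ccl4 at 2.23 (SE 0.24; edgeR adjusted p = 0.000599) and Ccl3 at 2.31 (SE 0.23; adjusted p = 0.000338), and Tnf fell. Of 22 MHC class I genes 5 rose, with B2m at 1.39 (SE 0.28; adjusted p = 0.0253). None of 11 MHC class II genes passed the edgeR test, though 4 had an unadjusted p under 0.05. Some were called higher without white matter library 1 or 3, without a filter on low counts and by the DESeq2 Wald test. In each of these settings more of all genes were also called higher. Cd74, at 440 CPM in gray matter WAM and 670, 1463 and 1141 CPM in white matter WAM, had an adjusted p of 0.116. Without white matter library 2, 4 cytokine genes rose, Ccl3 and Ccl4 among them, and the calls of Tnf and of the 5 class I genes were lost. Of 45 lysosomal genes 1 rose (Ctsl), of 25 lipid genes 4, of 20 iron and redox genes 5 with 1 lower (the iron exporter Slc40a1), and of 20 cholesterol synthesis genes none. Ch25h among the 4 lipid calls and Igf1 among the 7 cytokine calls had no gray matter UMI. Both passed the filter through white matter alone, which leaves 3 lipid and 6 cytokine calls. The lysosomal call and the 6 iron and redox calls were lost without white matter library 2. Under library size alone 1 of the 5 higher iron and redox genes was called, and 2 of the 5 class I genes. Without white matter library 1 the calls of lysosomal, iron and redox, cytokine and class I genes grew in number, as did those over all genes. Without a filter on low counts the lysosomal and the iron and redox calls grew, again with those over all genes. Such growth is therefore no result about these lists. In the main fit the share of lysosomal genes called higher was near the share of all genes given above. Of 32 interferon-stimulated genes Ifi27l2a rose and Ddx58 fell. Both calls were lost without white matter library 2, that of Ifi27l2a also under library size alone and that of Ddx58 also with thinned cells. Ribosomal protein genes, a family looked at after the values were seen, held 54 of the 167 calls out of 75 tested, with 22 calls under library size alone and none without white matter library 2. Their median was 1.07 on the log2 scale in WAM and 0.63 in the same test in homeostatic microglia.

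The same tissue test in homeostatic microglia gave 63 genes (0.508%) higher and 9 (0.0725%) lower of 12408, and 36 of the 167 and 3 of the 34 calls in WAM were shared with it. Lpl, Spp1, Itgax and Axl were among them, at 5.11, 5.89, 3.17 and 4.21 on the log2 scale (edgeR adjusted p = 0.00154, 0.033, 0.00525 and 0.00467). With Homeostatic1 cells alone 1 gene was higher (0.00888% of 11264) and 4 lower (0.0355%), and Lpl gave 2.53 with an adjusted p of 0.102. Apoe was the gene higher in white matter there, at 1.89 (adjusted p = 0.0458).

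**Figure D4:**
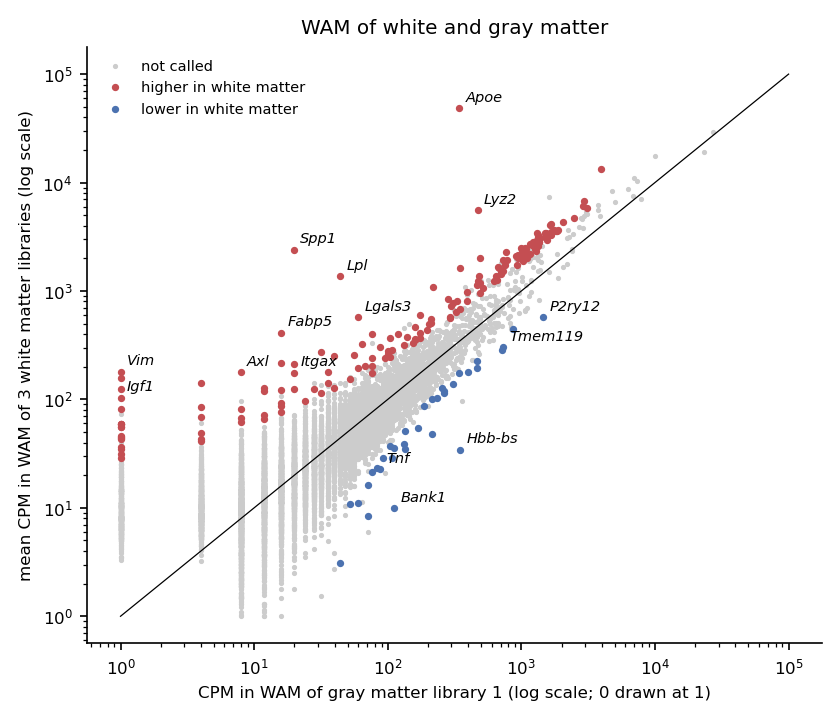
Mean CPM in WAM of 3 white matter libraries against CPM in WAM of gray matter library 1, both on log axes, with 0 drawn at 1 and 1 point per gene tested. Of the 27 gray matter cells labelled WAM, 19 had no UMI of the 4 markers. Of the genes, 167 were called higher (red) and 34 lower (blue) in white matter, with Apoe and Spp1 far above the line of equality and P2ry12 and Tmem119 under it.

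Whether the step from homeostatic microglia to WAM differed between tissues was tested with the library as a block. Of 12184 genes 7 (0.0575%) had a WAM minus homeostatic difference that lay higher in white matter and 5 (0.041%) one that lay lower, at an adjusted p of at most 0.05. Of the 7, Postn had no UMI in gray matter WAM, so its gray matter step is undefined and 6 remain. The clusters were drawn from these genes in these cells, so the test compares steps between clusters rather than a quantity independent of them. A lower value is a smaller rise for Ccl5, Tnf and Prr5l and a larger drop for P2ry12 and Bank1. The 4 markers were not among them, and neither was Apoe, at 1.36 with an edgeR adjusted p of 0.0539. This outcome depended on the reference, which was nearly all Homeostatic1 in gray matter and a mixture of Homeostatic1 and Homeostatic2 in white matter. With Homeostatic1 alone as the reference, a choice made after the data were seen, 257 genes lay higher (250 with a UMI in gray matter WAM) and 46 lower, and the 12 genes were kept. Against Homeostatic1 the step of Apoe was 0.87 in gray matter against 6.36, 5.76 and 6.30 in white matter, a difference of 5.34 (SE 0.23). The difference was 2.49 (SE 0.51) for Lpl, 2.51 (SE 0.62) for Itgax, 3.64 (SE 1.20) for Spp1 and 2.59 (SE 0.79) for Axl. Lpl and Itgax were among the genes that lay higher there, and Spp1 and Axl were not. These values are a description, since the reference was itself cut by the clustering. Against the pooled homeostatic reference, the step of Lyz2 was 0.61 in gray matter, against 1.83, 2.58 and 2.80 in white matter (edgeR interaction adjusted p = 0.00172), that of Fabp5 0.29 and 3.42 to 4.08 (adjusted p = 0.00352) and that of P2ry12 -0.89 and -1.60 to -1.80 (adjusted p = 0.0339). With the pooled reference, the calls of Fth1 and P2ry12 were lost without white matter library 2, and those of Znhit1 and D8Ertd738e without library 3. The DESeq2 Wald test did not call Lyz2, Postn, Znhit1 and D8Ertd738e. Without the library block none of the 12 was called, and the fit left 514 genes higher and 229 lower at an unadjusted p of at most 0.05.

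Cells of other types were looked for in WAM, and above all lymphocytes. Of 10 T cell markers with a row, 4 had a count, 36 UMIs in all WAM, of which 32 were of Cd5. Cd3e, Cd3g, Trac, Trbc1, Cd8b1 and Cd4 were at 0. The T cell list summed to 1.87 to 9.81 CPM (of all UMIs, without TMM scaling) in WAM and 0.893 to 2.91 in homeostatic microglia. B cell markers summed to 124 to 314 CPM in WAM and 216 to 272 in homeostatic microglia, in Ighm, Cd79b and Ighd, with Cd79a, Ms4a1 and Igkc at 0. NK cell markers summed to 3.86 to 7.19 CPM in WAM and 0.520 to 2.91 CPM in homeostatic microglia, with Ncr1, Klre1, Klra4, Gzmb and Eomes at 0. The WAM sums were 1 UMI in gray matter and 24, 5 and 13 UMIs in white matter libraries 1 to 3.

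Of 11 markers of monocytes, granulocytes and dendritic cells with a row, 9 had a count in WAM, 299 UMIs in all, and Ly6c2 and Plac8 were at 0. Itga4, an integrin chain, gave 3, 91, 16 and 28 of their UMIs in gray matter library 1 and white matter libraries 1 to 3.

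Markers of border macrophages summed to 19.6 CPM in gray matter WAM and 85.2 to 136 in white matter WAM, against 15.2 to 29.1 in homeostatic microglia. In white matter the sum was mostly Ms4a7 (412, 52 and 195 UMIs), while Lyve1 and Cd209f were at 0 and Mrc1 had 10, 1 and 1 UMIs. Oligodendrocyte markers summed to 1452 to 3112 CPM in WAM and 1596 to 3913 in homeostatic microglia, against 82635 to 89111 in oligodendrocytes. The 3′ tag of Rag1, 1 to 8 UMIs per WAM sum, may lie outside the deleted part and checks nothing.

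**Figure D5:**
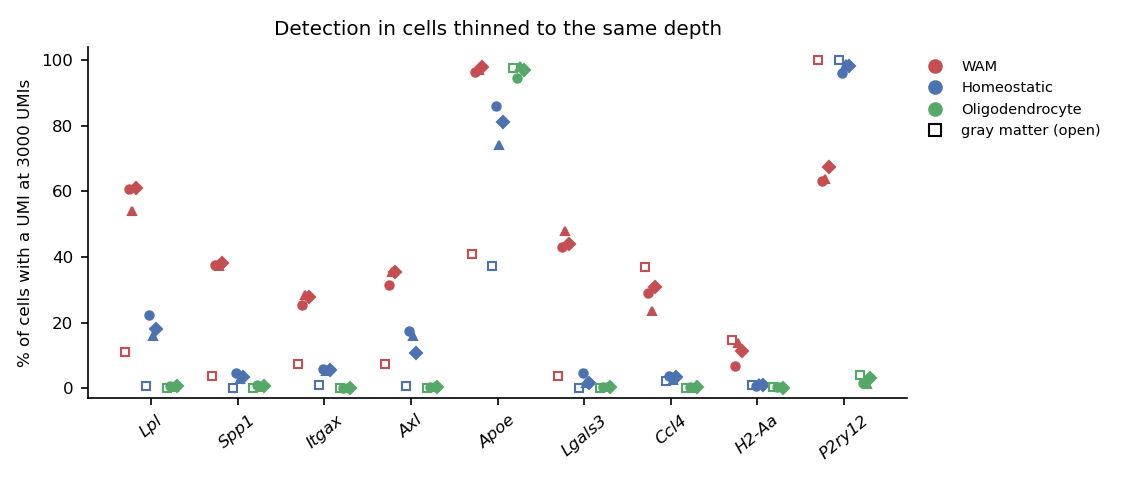
Percentage of cells with a UMI of each gene after thinning to 3000 UMIs per cell, in WAM, homeostatic microglia and oligodendrocytes, 1 symbol per library: gray matter as open squares, and white matter libraries 1 to 3 as circles, triangles and diamonds. Lpl lies at 53.9% to 60.9% in white matter WAM, 11.1% in gray matter WAM and at most 0.697% in oligodendrocytes, and Apoe is seen in 94.6% to 98.3% of oligodendrocytes but 40.7% of gray matter WAM.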

How the data were processed

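Single-cell UMI counts of 4 Rag1-/- libraries were analysed. The authors made the deposited counts with Cell Ranger on mm10 (the submitters' processing notes name version 4, and the version differed by batch in the methods), filtered cells on UMIs (the methods give ceilings that differ by batch, but the highest cell of each library in the table held 19911 to 19979 UMIs), and clustered microglia jointly with wild-type microglia of another series after integration in Seurat. Cell names were taken from that clustering. Counts came from the table of all Rag1-/- cells, and the joint microglia table, the wild-type tables and the counts of the oligodendrocyte table were left out. No column of another series was used (0 columns).

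Counts were summed per library and state, scaled by TMM and given as CPM. Differences used log2 CPM with a prior count of 2, and a gene was named past 2-fold in each library. Tissues were compared with edgeR's quasi-likelihood test (adjusted p of at most 0.05, Benjamini-Hochberg over all genes past the filter), and the step between tissues as an interaction with the library as a block, since both sums of a library come from the same animals. The scripts were tested on simulated data. P-values measure the spread between these libraries, and the lone gray matter library was assumed to vary like white matter. Shares have Clopper-Pearson 95% intervals and 0 counts a floor of 3 counts, both for counting error alone. Cells were thinned to 3000 UMIs for detection, which kept 27, 749, 102 and 184 WAM. No doublet caller was run.

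Genes named outside the lists were the 15 at each end with a mean of at least 20 CPM past 2-fold in 4 libraries (12 met this at the lower end), the 10 at each end of the tested contrasts, and the 10 with the highest Spearman's rho with the marker share in the white matter library with most WAM, seen in at least 10% of WAM. Members and lists were chosen with earlier results of these data known. Tools were R 4.3.3, edgeR 4.0.16, limma 3.58.1, DESeq2 1.42.0, Python 3.11.15, numpy 2.4.6, scipy 1.17.1, pandas 2.3.3 and matplotlib 3.10.9. Alternatives were other scalings, filters, prior counts, reference cells and tests, a batch term, thinning, and leaving out each library. Some genes are not reported here.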

Additional observations from a re-analysis of the deposited data

Results flagged for a closer look

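The interaction test of edgeR with the library as a block called 12 genes for the step from homeostatic microglia to WAM between white and gray matter. Of the 7 that lay higher in white matter, 1 (Postn) had no UMI in gray matter WAM, which leaves 6. Values are white minus gray matter differences of the log2 step, gray matter WAM were 27 cells of 1 library, and the clusters between which the step lies were drawn from these genes in these cells. The step lay higher in white matter for Lyz2 (1.83, SE 0.28, adjusted p = 0.00172), Fabp5 (3.33, SE 0.55, adjusted p = 0.00352), Fth1 (0.945, SE 0.16, adjusted p = 0.00608) and Cox8a, a subunit of cytochrome c oxidase (1.14, SE 0.20, adjusted p = 0.0082). It also lay higher for D8Ertd738e (1.67, SE 0.33, adjusted p = 0.0309), Znhit1 (2.75, SE 0.56, adjusted p = 0.0339). For Postn, a matrix protein, the fit gave 11.99, but it had no UMI in gray matter WAM and passed the filter through other sums, so its gray matter step is undefined and this value is no result.

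The step lay lower in white matter for Ccl5, a chemokine (-4.58, SE 0.55, adjusted p = 4.46e-05), Tnf (-3.62, SE 0.55, adjusted p = 0.00172), Bank1, a signalling scaffold best known in B cells (-2.15, SE 0.35, adjusted p = 0.00352), Prr5l (-2.29, SE 0.43, adjusted p = 0.0126) and P2ry12 (-0.78, SE 0.16, adjusted p = 0.0339). All 24 gray matter Ccl5 UMIs lay in 1 WAM cell, which also held 14 of 15 Lgals3 UMIs, and 21 of 22 Tnf UMIs lay in 1 cell. The 28 Bank1 UMIs lay in 13 cells and the 20 Prr5l UMIs in 9. Bank1 stood at 117 CPM in gray matter WAM and 9.43 to 12.7 CPM in white matter WAM. The DESeq2 Wald test did not call Lyz2, Postn, Znhit1 and D8Ertd738e. The 12 genes were also called with Homeostatic1 alone as the reference.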

How the results depend on the processing

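With 27 gray matter WAM and 1 gray matter library, depth and replication limit each tissue comparison. Of the called genes, direction was followed only for the 76 named ones of the tissue test and the 12 of the interaction. None of these turned in a setting where it had a value. Scaling by library size alone turned the median of all genes in the tissue test from 0.05 to -0.36. Gray matter Apoe, Axl and Lyz2 turned against Homeostatic2 alone (-1.90, -2.02 and -0.89). The median of the interferon list went from -0.25 to 0.012 against Homeostatic1 alone and -0.79 against Homeostatic2 alone, and that of the MHC class I list from 0.19 to -0.077 against Homeostatic2 alone. Of genes past 2-fold over homeostatic microglia (147 higher, 46 lower), the lower count moved to 87 with library size alone, 75 without a filter and 30 with thinned cells, and both counts moved to 62 and 7 with Homeostatic2 alone. Leaving out 1 library gave 158 to 311 higher and 60 to 108 lower, highest without gray matter. With 3 white matter libraries and Homeostatic1 alone, an alternative chosen after seeing the data, they were 487 and 198. Between tissues within WAM (167 higher, 34 lower), library size alone gave 81 and 154, no filter 363 and 91, and leaving out 1 library 19 to 462 and 1 to 208. The most were without white matter library 1, where tissue and batch cannot be told apart. Thinned cells, also chosen after seeing the data, gave 162 and 23, with 125 and 14 shared. For the interaction (7 higher, 5 lower), library size alone gave 56 lower, DESeq2 size factors 10 lower, no filter 53 and 16, the DESeq2 Wald test 4 higher, Homeostatic1 alone (chosen after seeing the data) 257 and 46, and leaving out 1 library 7 to 81 and 5 to 24. The fit with no replicate block, which ignores the pairing of both sums of a library, gave 0 and 0. The share of WAM, 12.2-fold higher in white matter, was 8.62-fold of all cells and 11.2 to 12.7-fold without 1 white matter library. The ratio of WAM to homeostatic median UMIs, 1.25, was 1.06 for genes per cell and 1.21 to 1.30 without 1 library. The causes were not tested. A repeat on counts of another table was not run, because the table of all cell types became the source of the counts.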
